A study of Homo sapiens with 6 samples.

Results

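EPCAM, CD24 and 5 genes of the membrane-anchored serine protease system (ST14, PRSS8, TMPRSS2, SPINT1 and SPINT2) were examined in human embryonic stem cells that had begun to form mesoderm with or without SNAI1. These 7 genes were chosen by symbol as cell surface genes of epithelia, out of 37803 gene symbols found once in both deposited tables, and all 7 were among the 13909 genes tested. The choice was made with earlier results of these data known. The cells were H1, an established line of human embryonic stem cells, harvested on day 2 of hematopoietic differentiation. Every group was grown in Custom mTeSR1 that contained, as the labels give it, 40 ng/ml activin A plus 50 ng/ml BMP4, whereas the methods of the study assign the doses to the other factor. The groups were WT cells (n = 2 libraries) and 2 groups of SNAI1-deleted cells, SNAI1_KO_1 (n = 2) and SNAI1_KO_2 (n = 2). Per the study, each gene was deleted in a pair of lines made with CRISPR/Cas9 and carrying frameshift mutations. The leading number in the sample titles was taken as the group without being matched to those lines. No source says whether the libraries of a group came from separate cultures, so the p-values below measure only the spread between these libraries, which may be technical.

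Expression was measured by RNA-seq as FPKM, a fragment count corrected for transcript length and library total, in 2 tables that each held 1 library of every group and were normalized separately. Knockout and WT libraries were therefore compared within a table. The tables listed 38100 and 58324 gene rows, and the study names BGI and Novogene for its RNA-seq without matching them to libraries. Differences of processing and of libraries between the tables cannot be told apart. Absolute depth is unknown, and 13626 to 14164 symbols reached 1 FPKM in a library. SNAI1 mRNA, which a frameshift mutation need not lower, was 37.1 and 36.4 FPKM in WT and 47.8 to 68.6 in the knockout libraries, so it did not serve as a check of the labels. Differences are given on the log2(FPKM + 1) scale, as the mean of both knockout groups minus WT with its standard error (SE), and genes with low values appear less changed on this scale than they are. A gene was called higher or lower where its adjusted p from limma was under 0.05.

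EPCAM is a transmembrane adhesion protein of epithelial cells and of undifferentiated pluripotent cells, and CD24 is a heavily glycosylated protein held at the surface by a glycosylphosphatidylinositol (GPI) anchor. Matriptase, the product of ST14, is a transmembrane serine protease of epithelia. It works together with prostasin, the GPI-anchored protease encoded by PRSS8, and TMPRSS2 is a further transmembrane serine protease. HAI-1 and HAI-2, the products of SPINT1 and SPINT2, are transmembrane Kunitz-type inhibitors of these proteases. Matriptase can cleave EPCAM, and both inhibitors are needed to keep matriptase in check in epithelial tissues. SNAI1 is a zinc-finger repressor that binds the E-box letters CAGGTG, which read CACCTG on the opposite strand, in genes such as that of E-cadherin.

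The genes lie on 7 different chromosomes. In the GRCh38 build with GENCODE release 29, which is not the build of the deposited values, EPCAM spans chr2:47345158-47387601 on the plus strand and CD24 spans chr6:106969831-106975627 on the minus strand. The protease genes are ST14 at chr11:130159562-130210376 (plus), PRSS8 at chr16:31131433-31135762 (minus) and TMPRSS2 at chr21:41464551-41531116 (minus). The inhibitor genes are SPINT1 at chr15:40844018-40858207 (plus) and SPINT2 at chr19:38244035-38292614 (plus).

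RefSeq promoter windows (GRCh38.p14, 250 bases before to 50 bases after a transcription start) were matched by symbol for 2 of the 7 genes, SPINT1 with 2 starts and CD24 with 3 starts. They were searched for CAGGTG and CACCTG, which are the same letters on the 2 strands. The letters were found in 1 window of SPINT1 and 1 window of CD24. Of all 35116 RefSeq promoter windows, 20.6% held them (95% Wilson interval 20.2% to 21%, counting error only). The stretches below show where the letters, in capitals, fell in the gene that was higher in the knockout libraries (SPINT1) and in the gene that was not called (CD24). The first SPINT1 stretch, upstream of the gene body, holds none. The last line is CLDN7, whose knockout pattern was among the nearest to that of EPCAM, shown for its final 30 bases before the second start. All 30 lie in annotated exons, whose gene was not recorded.
SPINT1 first start, chr15:40843868-40844017, plus strand: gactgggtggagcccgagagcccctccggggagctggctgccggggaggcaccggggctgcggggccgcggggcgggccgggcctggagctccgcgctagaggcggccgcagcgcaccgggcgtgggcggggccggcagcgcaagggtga
SPINT1 second start, chr15:40844402-40844476, plus strand: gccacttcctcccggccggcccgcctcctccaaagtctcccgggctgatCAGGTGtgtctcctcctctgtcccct
CD24 start 3, chr6:106974215-106974289, minus strand: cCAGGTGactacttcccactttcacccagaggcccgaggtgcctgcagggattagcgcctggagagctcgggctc
CLDN7 second start, chr17:7262479-7262508, minus strand: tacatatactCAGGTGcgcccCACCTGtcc
In SPINT1 the letters began 26 bases before the second start, and in CD24 they began 249 bases before start 3. The first CLDN7 window held none and the second held them at 5 places, of which 2 are in the stretch shown, beginning 20 and 9 bases before the start. The windows of the other genes near EPCAM were not searched, and the share of all windows that hold the letters at 5 places was not counted. A match is a description of the sequence and does not show binding.

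Of the 7 genes, 6 were higher in the knockout groups than in WT and 1, CD24, was not called. Over all genes tested, 15.8% were called higher. Because the 7 genes were chosen with earlier results known, their counts beside those shares are a description and not a test. All 4 knockout libraries lay above both WT libraries for 6 of the 7 genes, against 16.9% of all genes tested, and all 4 within-table differences were above 0 for 7 of 7, against 26.2%. The median log2 difference was 1.09 over the 7 genes and -0.05 over all genes tested. In bulk samples, more cells of a type and more RNA per cell cannot be told apart.

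**Figure D1:**
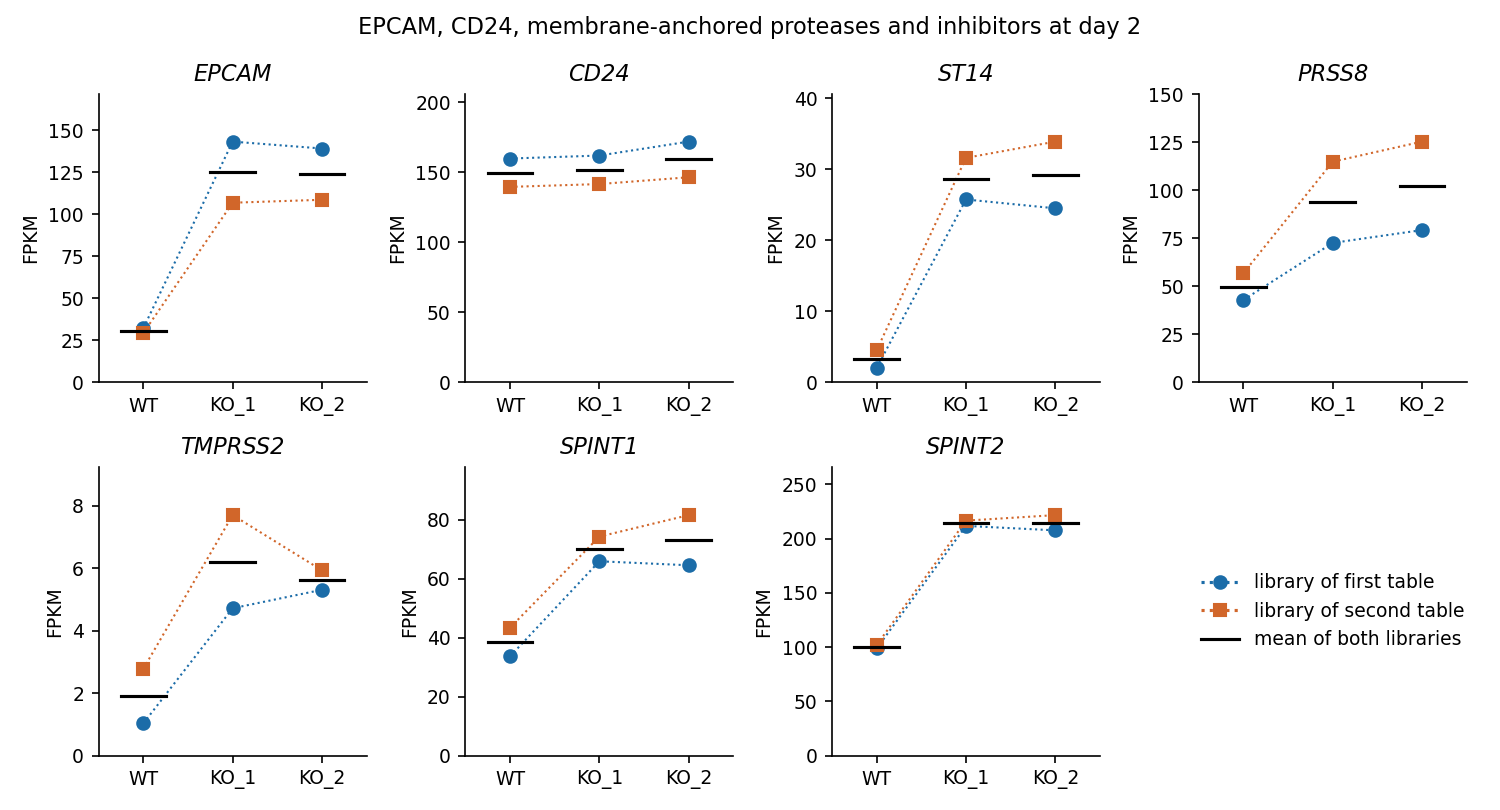
FPKM (y axis) of the 7 genes in the WT, SNAI1_KO_1 and SNAI1_KO_2 groups (x axis), with 1 point per library, circles for the first table and squares for the second, dotted lines joining libraries of a table and black bars at the mean of both libraries. The knockout libraries sit above both WT libraries for EPCAM, ST14, PRSS8, TMPRSS2, SPINT1 and SPINT2, whereas the CD24 libraries of all groups lie between 139 and 172 FPKM.

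EPCAM FPKM in the first table was 32.1 in WT, 143 in SNAI1_KO_1 and 139 in SNAI1_KO_2. In the second table it was 29.3 in WT, 107 in SNAI1_KO_1 and 109 in SNAI1_KO_2. The lowest knockout library thus lay 74.7 FPKM above the highest WT library, and the knockout libraries were 3.65 to 4.46 times WT of the same table. The log2 difference was 1.97 ± 0.073 (SE; 95% interval 1.79 to 2.16; limma adjusted p = 0.000183). In WT 78.9% and 76.2% of the genes tested had lower FPKM than EPCAM, and in the knockout libraries 93.8% to 95.9% did. Of all genes tested, 99.0% had a smaller log2 difference.

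CD24 was not called. In the first table its FPKM was 159.6 in WT, 162 in SNAI1_KO_1 and 172 in SNAI1_KO_2, and in the second it was 139 in WT, 141 in SNAI1_KO_1 and 146 in SNAI1_KO_2. The knockout libraries were 1.01 to 1.08 times WT of the same table, above it in 4 of 4 differences, and the WT and knockout ranges overlapped across tables. The log2 difference was 0.05 ± 0.041 (SE; 95% interval -0.05 to 0.16), and limma gave an adjusted p of 0.366, so an increase beyond 0.16 lay outside the interval. CD24 was the most abundant of the 7 genes in WT.

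Of the proteases, ST14 showed the largest difference of the 7 genes. ST14 FPKM in the first table was 2.01 in WT, 25.7 in SNAI1_KO_1 and 24.5 in SNAI1_KO_2. In the second table it was 4.50 in WT, 31.6 in SNAI1_KO_1 and 33.9 in SNAI1_KO_2. The groups did not overlap, and the knockout libraries were 12.2 and 12.8 times WT of the first table but 7.02 and 7.53 times WT of the second, where the WT library was higher. The log2 difference was 2.87 ± 0.13 (SE; 95% interval 2.53 to 3.20; limma adjusted p = 0.000269). It ranked 27 among the 13909 genes tested, counted from the largest increase. ST14 FPKM exceeded that of 15.7% and 30.9% of the genes tested in WT and of 73.3% to 79.2% in the knockout libraries.

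PRSS8 was already expressed in WT and rose less. Its FPKM was 42.9 in WT, 72.6 in SNAI1_KO_1 and 79.3 in SNAI1_KO_2 in the first table. It was 56.8 in WT, 115 in SNAI1_KO_1 and 125 in SNAI1_KO_2 in the second. Each knockout library was 1.69 to 2.21 times WT of the same table, and the groups did not overlap. The log2 difference was 0.94 ± 0.072 (SE; 95% interval 0.76 to 1.12; limma adjusted p = 0.000918). Without a term for the table the adjusted p was 0.129 by limma, and PRSS8 was higher in the second table in every group.

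TMPRSS2 was the least abundant of the 7 genes in every library. In the first table its FPKM was 1.03 in WT, 4.72 in SNAI1_KO_1 and 5.31 in SNAI1_KO_2. In the second it was 2.78 in WT, 7.70 in SNAI1_KO_1 and 5.93 in SNAI1_KO_2. The groups did not overlap, although the fold over WT ranged from 2.13 to 5.13. The log2 difference was 1.30 ± 0.17 (SE; 95% interval 0.86 to 1.74; limma adjusted p = 0.00521). This call was lost without the term for the table (adjusted p = 0.0701), without the filter on low values (adjusted p = 0.0568) and when the first WT library was left out (log2 difference 1.04, adjusted p = 0.0513).

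Both inhibitor genes rose. SPINT1 FPKM in the first table was 33.7 in WT, 65.9 in SNAI1_KO_1 and 64.6 in SNAI1_KO_2. In the second table it was 43.4 in WT, 74.3 in SNAI1_KO_1 and 81.6 in SNAI1_KO_2. The knockout libraries were 1.71 to 1.96 times WT of the same table with no overlap between groups, and the log2 difference was 0.88 ± 0.061 (SE; 95% interval 0.73 to 1.04; limma adjusted p = 0.000730). SPINT1 shares exonic bases on the opposite strand with its antisense gene SPINT1-AS1, which was also higher in the knockout libraries (9.12 to 13.4 FPKM) than in WT (2.67 and 5.55 FPKM). Strand-specific counting is not stated, so reads of the overlap cannot be assigned to either gene. The overlap was taken over all SPINT1 transcripts, and the longest coding one shares no 50-base stretch with another gene on either strand.

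SPINT2 had the smallest spread between tables of the genes that rose. Its FPKM in the first table was 98.8 in WT, 212 in SNAI1_KO_1 and 208 in SNAI1_KO_2. In the second table it was 102 in WT, 217 in SNAI1_KO_1 and 222 in SNAI1_KO_2. All 4 knockout libraries were 2.10 to 2.17 times WT of the same table. The log2 difference was 1.09 ± 0.041 (SE; 95% interval 0.98 to 1.19; limma adjusted p = 0.000183), and SPINT2 became the most abundant of the 7 genes in every knockout library.

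**Figure D2:**
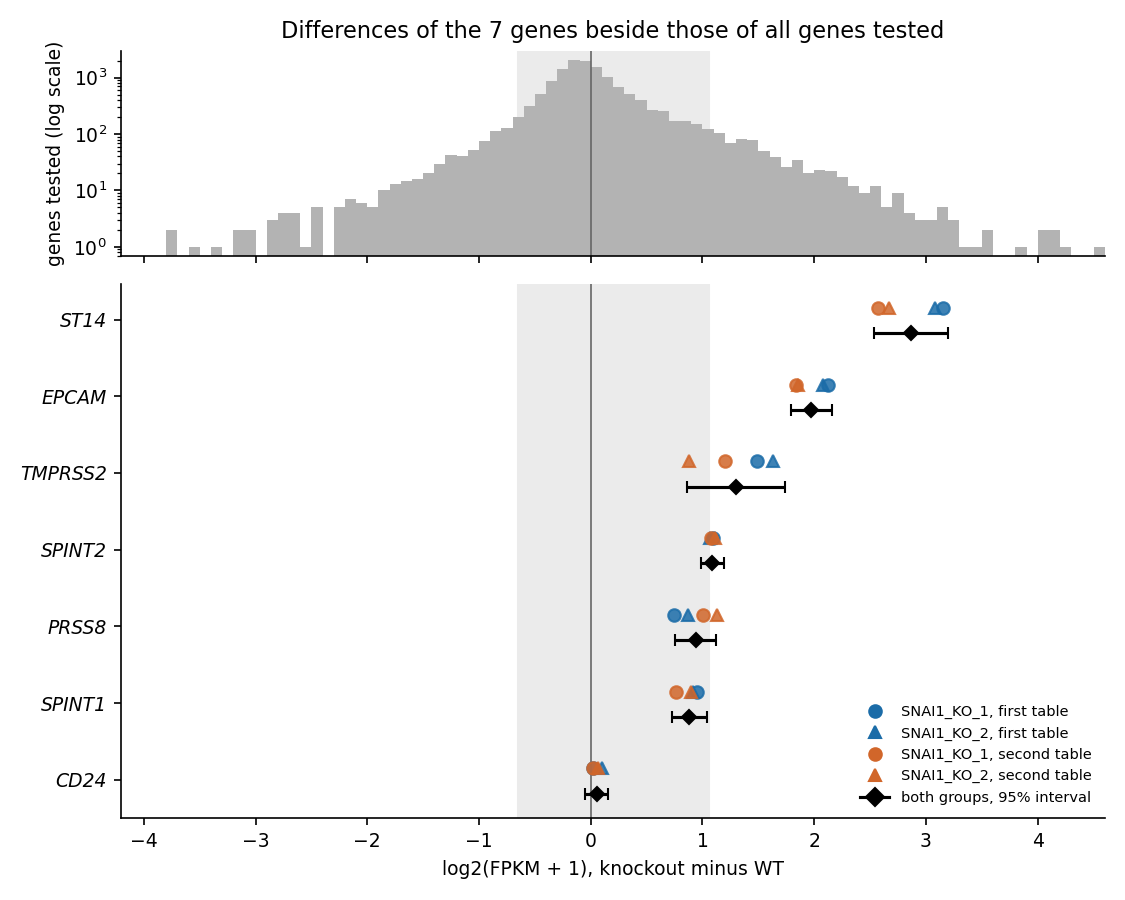
Top, histogram of the log2 differences of all genes tested, with the number of genes on a log scale. Bottom, differences of each gene from WT of the same table on the log2(FPKM + 1) scale, with 1 point for each knockout library and a diamond with its 95% interval for both groups. The grey band holds the middle of all 13909 genes tested, from the 5th to the 95th percentile (-0.65 to 1.06), and EPCAM, ST14, TMPRSS2 and SPINT2 have means above it.

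The order of the levels changed with the genotype. In both WT libraries it ran CD24, SPINT2, PRSS8, SPINT1, EPCAM, ST14 and TMPRSS2 from the highest to the lowest FPKM. In the knockout libraries SPINT2 came first and CD24 second. EPCAM then preceded PRSS8 in the first table and followed it in the second, and SPINT1, ST14 and TMPRSS2 came last in that order. Neighbours whose ranges overlapped between tables were PRSS8 and SPINT1 in WT, ST14 and TMPRSS2 in WT, and, in the knockout libraries, CD24 and EPCAM, EPCAM and PRSS8, and PRSS8 and SPINT1.

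Each knockout group was also compared with WT and with the other. Against WT, 6 of the 7 genes were called higher in SNAI1_KO_1 (13.0% of all genes) and the same number in SNAI1_KO_2 (13.5% of all genes), CD24 being the gene not called in either. Between SNAI1_KO_2 and SNAI1_KO_1 no gene of the 7 was called by limma, and 0 reached an unadjusted p under 0.05. Over all genes tested 0% were called in that comparison and 521 (3.75%) had an unadjusted p under 0.05. The largest difference between the knockout groups was 0.13 for PRSS8, and the 95% intervals of the 7 genes ran from -0.60 to 0.42, widest for TMPRSS2. Differences within those bounds were not resolved.

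To compare proteases with their inhibitors, the FPKM of ST14, PRSS8 and TMPRSS2 was summed and set against the sum of SPINT1 and SPINT2. Summed protease FPKM was 45.9 and 64.0 in WT and 103 to 165 in the knockout libraries, and summed inhibitor FPKM was 132 and 145 in WT and 272 to 303 in the knockout libraries. The ratio of the sums was 0.346 in WT, 0.371 in SNAI1_KO_1 and 0.401 in SNAI1_KO_2 for the first table, against 0.441, 0.530 and 0.545 for the second. The ratio was above WT of the same table in all 4 knockout libraries, but the groups overlapped across tables. Its log2 difference of 0.22 gave p = 0.533 in a two-sided exact permutation test over the 4 knockout and 2 WT libraries, which cannot give less than 0.133 and so cannot reach 0.05. With labels permuted only within a table, an alternative chosen after seeing the data, the two-sided exact p was 0.222, the smallest its 9 arrangements allow.

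The makeup of the protease sum differed between the groups. ST14 made up 4.37% and 7.02% of summed protease FPKM in WT and 20.5% to 25.0% in the knockout libraries, while PRSS8 made up 93.4% and 88.6% in WT and 70.5% to 75.9% in the knockout libraries. The ratio of ST14 to SPINT1 was 0.0596 and 0.104 in WT and 0.379 to 0.425 in the knockout libraries, 5.11 times higher on the mean log2 scale, with p = 0.133 in the two-sided exact permutation test and 0.222 within tables, the smallest each allows. By contrast, the ratio of PRSS8 to SPINT2 was 0.434 and 0.557 in WT and 0.343 to 0.566 in the knockout libraries (log2 difference -0.14, p = 0.667 in the same exact test and 0.444 within tables). The share of SPINT2 in summed inhibitor FPKM was 70.1% and 74.6% in WT and 73.1% to 76.3% in the knockout libraries.

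**Figure D3:**
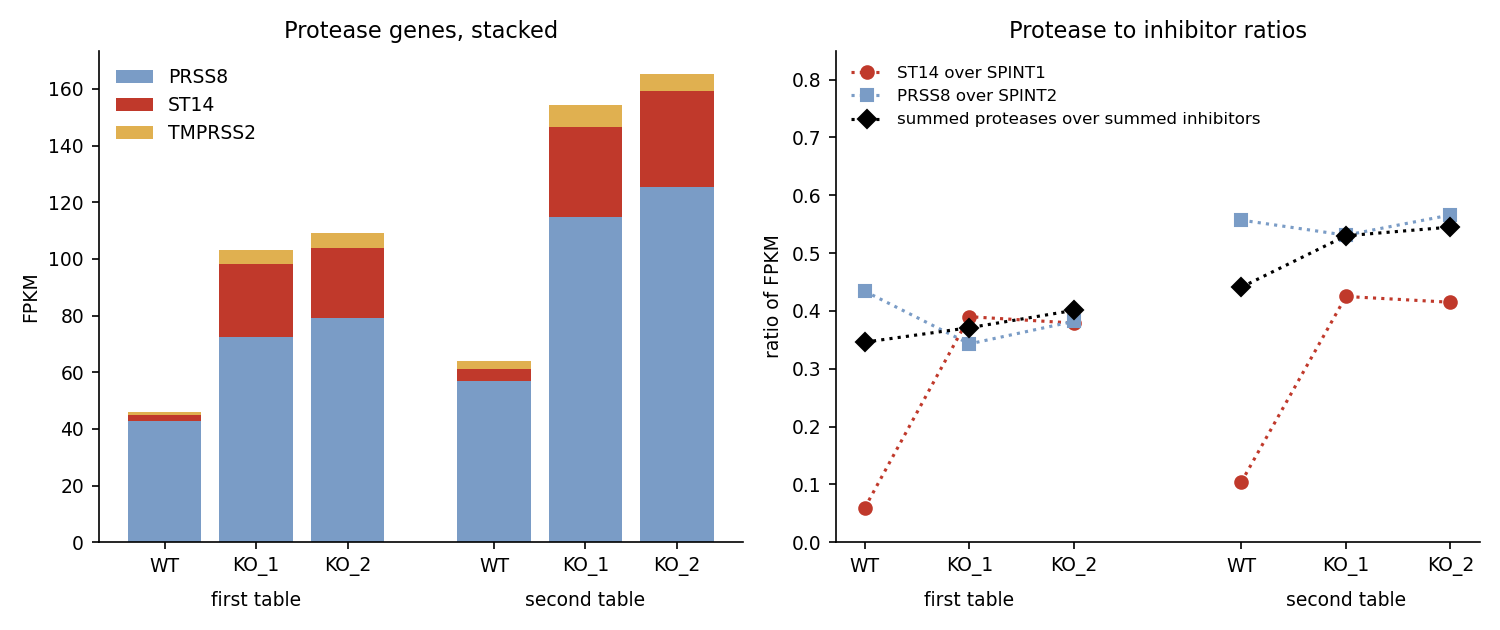
Left, FPKM of PRSS8, ST14 and TMPRSS2 stacked in each library, by table and group. Right, FPKM ratios in each library for ST14 over SPINT1, PRSS8 over SPINT2, and summed proteases over summed inhibitors. The ratio of the sums overlaps between groups across tables, whereas the ratio of ST14 to SPINT1 is at most 0.104 in WT and at least 0.379 in the knockout libraries.

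The gene lists that follow were also chosen with earlier results of these data known, so their counts are descriptions. Other membrane-anchored serine proteases were mostly below the filter. Of 20 listed genes 19 were found, 15 had a mean FPKM under 1, and of the 4 tested 1 was higher and 1 lower (median log2 difference 0.17, and over all genes tested 31.3% were called either way and 15.4% lower). TMPRSS13, a transmembrane protease of stratified epithelia, was the gene called higher. It had 0.193 and 0.162 FPKM in WT and 2.62 to 6.25 FPKM in the knockout libraries, and passed the filter only through the latter. Without the filter, 0 of 17 genes of the list were called by limma, and 3 had an unadjusted p under 0.05. TMPRSS11E fell from 5.90 and 4.80 FPKM in WT to between 3.24 and 4.46 FPKM (adjusted p = 0.0463 by limma).

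Of 12 other inhibitors of serine proteases, 6 were tested. Of these, 5 were higher and 0 were lower, against 15.8% and 15.4% of all genes tested, with a median log2 difference of 0.67. TFPI2, a secreted Kunitz-type inhibitor, was 7.36 and 10.6 FPKM in WT and 22.4 to 36.7 FPKM in the knockout libraries. TFPI and APP, the amyloid precursor whose longer forms hold a Kunitz domain, were also higher. SERPINE2, the inhibitor protease nexin-1, was abundant in all groups at 520 to 692 FPKM and was not called (log2 difference 0.06, adjusted p = 0.576 by limma).

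Among substrates and receptors of these proteases, 10 of 13 listed genes were tested. Of these, 4 were higher and 1 was lower, against 15.8% and 15.4% of all genes tested. SCNN1A encodes the alpha subunit of the epithelial sodium channel, which prostasin helps to activate. It was 5.42 and 9.39 FPKM in WT and 31.0 to 59.7 FPKM in the knockout libraries (log2 difference 2.48, adjusted p = 0.000142 by limma). F2RL1, which encodes the protease-activated receptor PAR2, was 3.18 and 3.26 FPKM in WT and 7.85 to 11.4 FPKM in the knockout libraries, and CDCP1, a surface protein cleaved by serine proteases, was 1.55 and 2.33 against 6.26 to 7.46 FPKM. MST1, which encodes macrophage-stimulating protein, was the gene called lower, with 7.09 and 8.46 FPKM in WT and 3.40 to 4.78 FPKM in the knockout libraries. PLAU and its receptor gene PLAUR were not called, with log2 differences of 0.25 (adjusted p = 0.12) and 0.28 (adjusted p = 0.294) by limma. The list holds 2 tested genes whose WT mean was under 1 FPKM, and its median log2 difference was 0.53. MST1R, among those called higher, was 0.716 and 0.664 FPKM in WT and 1.34 to 2.38 FPKM in the knockout libraries. It passed the filter only through the latter, and without the filter 3 genes of the list were called higher by limma.

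For EPCAM, a list of its partners and the enzymes that cleave it was examined. Of 13 tested genes, 3 were higher and 0 were lower, against 15.8% and 15.4% of all genes tested (median log2 difference 0.18). CLDN7, the tight junction protein that binds EPCAM, was 17.7 and 18.6 FPKM in WT and 68.1 to 87.5 FPKM in the knockout libraries (log2 difference 2.01, adjusted p = 0.000292 by limma). CD9, a tetraspanin of the same surface complexes, was 41.4 and 39.9 FPKM in WT and 112 to 121 FPKM in the knockout libraries. APH1B, a subunit of gamma-secretase, which cleaves the EPCAM stub within the membrane, was higher too (log2 difference 0.81). The sheddase gene ADAM10 and the gamma-secretase gene APH1A were not called, with log2 differences of -0.15 (adjusted p = 0.0656) and -0.01 (adjusted p = 0.844) by limma.

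Since CD24 and prostasin are GPI-anchored, 13 other genes of GPI-anchored surface proteins were listed. Of the 12 tested, 6 were higher, 2 were lower and 4 were not called, against 15.8% higher and 15.4% lower over all genes tested. Their median log2 difference was 0.44. THY1 was 58.0 and 78.4 FPKM in WT and 129 to 195 FPKM in the knockout libraries, and CD55, which protects cells from complement, was 7.45 and 5.96 FPKM in WT and 13.0 to 18.1 FPKM in the knockout libraries. BST2 (log2 difference 1.55) and ALPL, the alkaline phosphatase of undifferentiated stem cells (0.66), were higher too. TDGF1, the Nodal co-receptor gene, and GPC3 were not called, with log2 differences of -0.17 (adjusted p = 0.113) and 0.43 (adjusted p = 0.0679) by limma.

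Transcription factors that act on epithelial genes were listed next. Of 10 tested epithelial transcription factors 7 were higher and 0 were lower (median log2 difference 0.71), against 15.8% and 15.4% of all genes tested. However, 3 of the 10 had a WT mean under 1 FPKM and passed the filter through the knockout libraries. GRHL3 was 0.858 and 1.02 FPKM in WT and 5.90 to 7.92 FPKM in the knockout libraries, and GRHL2 was 1.13 and 1.06 FPKM against 3.37 to 4.28 FPKM. OVOL2 (log2 difference 1.41) and TFAP2A (1.82) were higher as well, whereas TFAP2C (-0.02, adjusted p = 0.949 by limma) and KLF4 (-0.40, adjusted p = 0.0781 by limma) were not called. Of 6 listed repressors of epithelial genes 5 were tested. Of the 5 tested, 4 were lower and 0 were higher (median log2 difference -0.86), against 15.4% and 15.8% of all genes tested. None of these was called by limma (0 of 5, with 4 at an unadjusted p under 0.05) without the term for the table, and 2 were without either WT library. ZEB1, which passed the filter only through WT, was 2.02 and 2.88 FPKM in WT and 0.178 to 1.10 FPKM in the knockout libraries, ZEB2 was 12.0 and 9.98 FPKM against 3.10 to 5.79 FPKM, and TWIST1 (-0.86) and SNAI2 (-0.55) were the other two. TWIST2 was not called (log2 difference -0.50, adjusted p = 0.0590 by limma). SNAI3, below the filter, went the other way, with 0.143 and 0.280 FPKM in WT and 0.486 to 1.65 FPKM in the knockout libraries. Without the filter, 0 of the 6 were called higher by limma. SNAI1 itself, not in this list, was called higher (log2 difference 0.58, adjusted p = 0.00461 by limma).

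**Figure D4:**
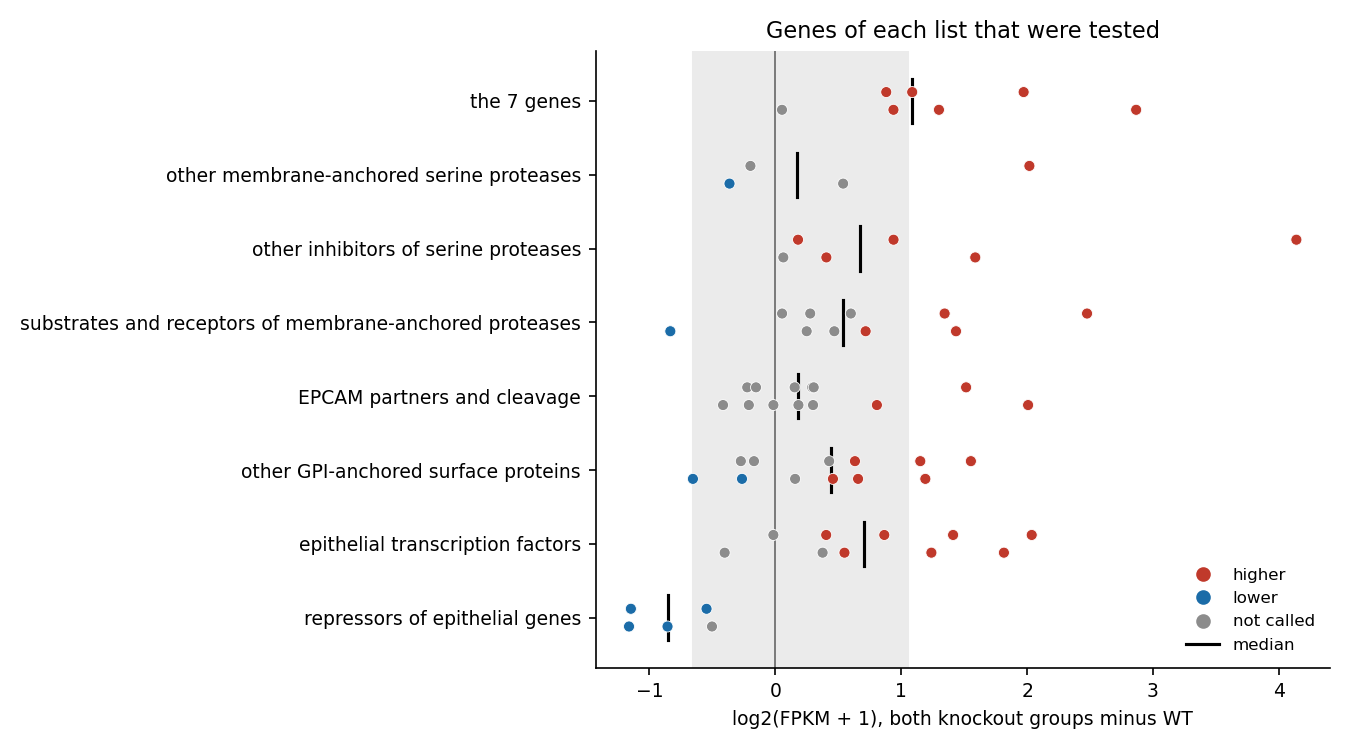
Log2 difference between both knockout groups and WT for each tested gene of the lists, 1 point per gene coloured by its call, with black bars at the medians and the grey band from the 5th to the 95th percentile of all genes tested (-0.65 to 1.06). The median of the repressors of epithelial genes is -0.86 and that of the epithelial transcription factors is 0.71.

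The genes whose knockout pattern was most like that of EPCAM were found by Euclidean distance over the 4 within-table log2 differences. CHMP4C (distance 0.101), CLDN7 (0.140), FAM129A (0.158), ANXA3 (0.161) and GATM (0.225) were the nearest of the 13909 genes tested, with log2 differences between 1.98 and 2.02. Among the other 6 genes of the set, TMPRSS2 was nearest to EPCAM at a distance of 1.40 and CD24 was farthest at 3.85. A distance over 4 differences is a description and has no test.

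Markers of cell states were measured beside these genes. Their call counts stand against 15.8% called higher and 15.4% called lower over all genes tested. Mesoderm markers, which check the labelled stage, were found for 9 of 10 symbols, none under 1 FPKM in every library. Their summed FPKM was 1697 and 1628 in WT and 1098 to 1183 in the knockout libraries, with HAND1, APLNR and MESP2 among 7 called lower, while T, the brachyury gene, was higher at 130 to 251 FPKM against 17.8 and 38.7 FPKM in WT. Undifferentiated pluripotent cell markers (8 of 8 found) summed to 966 and 1054 FPKM in WT and 1204 to 1486 FPKM in the knockout libraries. Most of that sum was POU5F1, at 485 and 630 FPKM in WT and 677 to 1014 FPKM in the knockout libraries. Of the 8 markers, 3 (POU5F1, NANOG and DPPA4) were called higher. The other 5 were not called, among them LIN28A (log2 difference 0.10) and DNMT3B (-0.06), and the list median was 0.27. EPCAM is also expressed in undifferentiated stem cells, and its log2 difference was 1.97, that of POU5F1 0.57 and that of NANOG 1.14.

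Definitive endoderm markers (6 of 6 found) summed to 3508 and 3133 FPKM in WT and 1435 to 2046 FPKM in the knockout libraries, with 2 called higher (SOX17 and FOXA1) and 3 lower. Most of that sum was CER1, at 3262 and 2550 FPKM in WT and 977 to 1797 FPKM in the knockout libraries, and the median log2 difference of the list was 0.02. FOXA1 passed the filter only through the knockout libraries (0.146 and 1.18 FPKM in WT). Amnion and trophoblast markers (10 of 10 found) summed to 28.7 and 44.2 FPKM in WT and 29.1 to 50.6 FPKM in the knockout libraries, with 5 under 1 FPKM in every library. TFAP2A and GABRP of that list were higher and GATA3 was lower, GABRP having passed the filter only through the knockout libraries (0.0415 and 0.149 FPKM in WT), and TFAP2A also stands in the epithelial transcription factor list. Surface ectoderm markers (5 of 5 found) summed to 1.45 and 1.96 FPKM in WT and 3.27 to 4.86 FPKM in the knockout libraries, with 4 under 1 FPKM in every library and 1 called higher. The part of these cell states in the differences of EPCAM, ST14, PRSS8, TMPRSS2, SPINT1 and SPINT2 was not tested.

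Reads shared with other genes could affect some of the values. In GENCODE release 29, ST14, TMPRSS2 and SPINT1 share no 50-base stretch of their longest coding transcript with another gene. PRSS8 shares 14.5% of such stretches with AC009088.3, which was near 0 FPKM in 4 libraries and was 1.03 and 0.451 FPKM in SNAI1_KO_2. SPINT2 shares 11.0% with AC011479.1, listed at about 0 in every library, and EPCAM shares 2.57% with AC093840.1. CD24 shares 6.90% with pseudogenes and other genes, most with CD24P4, which was 0 to 7.15 FPKM, so how reads were split between them bears on the value of CD24.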

How the data were processed

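RNA-seq of H1 cells was deposited by the authors as FPKM values of gene symbols, in 2 tables that each hold a WT, a SNAI1_KO_1 and a SNAI1_KO_2 library. A heading line of the second table names FPKM, and the first table holds the same kind of values without naming the unit. The submitters' processing notes name BWA, Bowtie, RSEM and hg19, with no role or version. Libraries were made from 2 ug of total RNA with a TruSeq kit, and strand and depth are not given in the sources used here.

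Symbols that a table repeats (94 and 340) were left out. Genes whose FPKM averaged at least 1 across all 6 libraries were fitted on log2(FPKM + 1) with limma (version 3.58.1, R version 4.3.3), with a mean per group, a term for the table and a mean-variance trend (2 residual and 3.34 prior degrees of freedom). Two-sided p-values were Benjamini-Hochberg adjusted over 13909 genes, with a threshold of 0.05. Count tests were not run, because FPKM values are not counts. Ratios were compared by an exact permutation test over libraries.

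Libraries of a table were paired because they share a table. Between-table differences of the groups correlated across genes with r = 0.616, 0.666 and 0.676. Genes are not independent replicates.

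The 7 genes and the gene lists were chosen with earlier results of these data known. Named genes were the 7, SNAI1, up to 4 called genes per list of the same sign in all 4 within-table differences (the largest), up to 2 tested and not called (the most abundant), and the 5 nearest to EPCAM. The overlapping genes were added for their relation to the 7 genes, MST1R for its low WT values and SNAI3 because it fell below the filter. Some named genes are not reported here. Lists are described by counts and medians, with no set test. The limma model was run on values simulated with independent normal noise of the fitted spread. Such values follow the model's own assumptions, so that run cannot show whether the deposited FPKM values meet them. Alternatives omitted the block, and tried pseudocounts of 0.1 and 10, no filter or a mean FPKM of at least 5, quantile and median-ratio scaling, no trend, knockout libraries as one group, and leaving out each library.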

Additional observations from a re-analysis of the deposited data

How the results depend on the processing

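EPCAM, ST14, SPINT1 and SPINT2 were called higher under all 15 alternatives, with log2 differences of 1.71 to 2.10, 1.55 to 3.21, 0.75 to 0.93 and 1.02 to 1.13. PRSS8 was called under 14 of 15 and TMPRSS2 under 11 of 14, at log2 differences of 0.42 to 1.71, and CD24 under 0 of 15. The lowest values of ST14 and TMPRSS2 came with a pseudocount of 10. Over all genes, 4348 were called in the comparison of both knockout groups with WT, and 1065 without the replicate block, 2139 without the filter, 1828 or 1728 when the first or second table's WT library was left out.

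Without the replicate block for the table, 4 of the 7 genes were called in both knockout groups, 3 in SNAI1_KO_1 and 3 in SNAI1_KO_2, as were 1 other membrane-anchored protease, 2 other inhibitors, 3 substrates or receptors, 4 GPI-anchored proteins and 0 repressors. The block changed no other call count by over 1.5 times. The protease to inhibitor ratio, permuted within tables as a block, gave p = 0.222 (exact) in place of 0.533. Without the filter, 0 other proteases, 3 other inhibitors and 4 GPI-anchored proteins were called. With a mean FPKM of at least 5, TMPRSS2 and the other proteases were not tested. At that filter 4 of 5 tested epithelial transcription factors and 2 of 2 tested repressors were called, against 3411 of all 9477 genes tested. Median-ratio scaling left 1 other protease, and the knockout libraries as one group gave 5 genes of the EPCAM list. Restricted to PRSS8 over SPINT2, the log2 protease to inhibitor ratio turned to -0.14.

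Leaving out each library in turn, 5 to 6 of the 7 genes were called in each comparison with WT and 0 between knockout groups. TMPRSS2 was lost without WT of the first table. The lists gave 1 to 2 other proteases, 3 to 4 other inhibitors, 3 to 5 substrates, 3 to 4 genes of the EPCAM list, 5 to 8 GPI-anchored proteins, 5 to 6 epithelial transcription factors and 2 to 4 repressors, and the log2 protease to inhibitor ratio 0.05 to 0.39. Counts moved by over 1.5 times without WT of the first table (other inhibitors, repressors), without WT of the second (all lists but the EPCAM list and the epithelial transcription factors), without either SNAI1_KO_1 library (other proteases, other inhibitors) and without either SNAI1_KO_2 library (other proteases, GPI-anchored proteins). Fewer genes were also called over all genes tested whichever library was left out, so a lower list count alone does not set a list apart. The causes of these changes were not tested. Depth is unknown, so no counting error is given, and with 2 libraries per group small differences such as that of CD24 were not resolved. In promoter windows cut to the 250 bases before the start, 17.5% held the E-box letters.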
